A study of Drosophila melanogaster with 46 samples.

Results

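The genes described here were rhythmic in the heads of WT, inc1 and wakeD2 flies and peaked in WT during the light hours or at dusk. Of 17490 genes in the count table, 9969 reached 1 CPM (counts scaled to the same library total) in at least 18 of 46 libraries. In each of the 3 groups a 24 h cosine was fitted to log2(CPM + 1) at the 10 timepoints that the groups share. Members had an F test p under 0.02 in all 3 groups and a fitted WT peak from ZT0 (lights on) up to ZT12 (lights off). The clock genes per, tim, Clk, cry, vri, Pdp1, cwo and cyc and the clock output gene to were left out by name, and 88 members remained. The same rule with a WT peak in the other 12 h gave 108 night-peaking genes. The members were thus chosen by the p of their cosine fits in WT, inc1 and wakeD2 and by their WT peak. The peaks in inc1 and wakeD2 were not part of the rule. Amplitudes and peaks in these 3 groups are given as descriptions without a test.

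The study asked how lifelong sleep loss affects rhythmic transcription in Drosophila heads. WT was the isogenic strain Canton-S w1118 (iso1CJ) at Day 27. The short-sleeping mutants inc1 (insomniac) and wakeD2 (wide awake) had been backcrossed to it and were also taken at Day 27, and WT-old was the same strain as WT at Day 49. On 2 consecutive days with 12 h of light each, heads of both sexes were pooled for 1 library at 4 h intervals, giving 12 libraries each for inc1, wakeD2 and WT-old and 10 for WT, which had none at ZT28 and ZT40 here. Each timepoint was sampled by a single pool, so p-values rest on the spread between timepoints and between the 2 sampling days.

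In the fly clock, the proteins CLK and CYC activate transcription of per and tim, and the products PER and TIM later inhibit their own activators. Clock-controlled genes driven by this loop, or by the light and feeding cycles around it, reach their highest RNA level at different hours in different tissues. A fly head holds compound eyes, brain, glia, cuticle, antennae and fat body, so a rhythm in whole heads sums several tissues. Fewer cells of a type and less RNA per cell cannot be told apart in such bulk samples.

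Library totals ran from 12630462 to 29802881 counts, and 3 counts, the level below which a value was read as not detected, corresponded to at most 0.238 CPM. Photoreceptor markers (ninaE, trp, norpA and Arr2) summed to 37853 to 64355 CPM and neuronal markers (elav, nSyb, Syt1 and brp) to 1979.9 to 4622 CPM. Some libraries also held transcripts of body tissues. The median of 5 male accessory gland genes exceeded 1 CPM in 2 of 10 WT, 4 of 12 inc1, 11 of 12 wakeD2 and 1 of 12 WT-old libraries. The summed level of that list reached 24.6 CPM in WT, 141 in inc1, 696 in wakeD2 and 29.7 in WT-old. In WT-old the 5 fat body and yolk genes Yp1, Yp2, Yp3, fit and Lsp2 moved with time of day. They summed to 44752 to 68484 CPM in its 6 light-hour libraries (ZT0 to ZT8 and ZT24 to ZT32), to 7892 at ZT12 and 5898 at ZT36, and to 189.5 to 265 CPM at ZT16, ZT20, ZT40 and ZT44. The same sum stayed between 50212 and 73538 CPM in WT. The male-specific RNAs roX1 and roX2 summed to 1431 to 1572 CPM in the dark-hour WT-old libraries and to 620.3 to 836 CPM in its light-hour libraries, although the methods give heads of mixed sex throughout. Those 6 dark-hour libraries thus stand apart from the rest of their group. The main WT-old results are therefore given also with the light-hour libraries alone or with the fat body genes as a covariate.

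The members filled both ends of the day. In WT 38 had their fitted peak before ZT4, 9 between ZT4 and ZT7, and 41 between ZT7 and ZT12. The highest WT library lay at a time of day from 0 to 12 h for 87 of the 88. In inc1 this held for 85 members, in wakeD2 for 86 and in WT-old for 74, where 14 members were highest at 20 h. The median amplitude, the distance on the log2 scale from the fitted mean to the fitted peak, was 0.43 in WT, 0.45 in inc1, 0.44 in wakeD2 and 0.38 in WT-old, beside 0.10, 0.12, 0.094 and 0.18 over all 9969 genes. A peak-to-trough ratio of at least 2 was fitted for 38 members in WT, 35 in inc1, 36 in wakeD2 and 28 in WT-old. The members just inside the p threshold were CG9747, Nt5a and rtp, with a largest p of 0.0198, 0.0193 and 0.0192, and the genes just outside were l(2)34Fd, a and Pak at 0.0204, 0.0204 and 0.0206. At the early edge of the peak window lay Ugt35B1 (ZT0.207 ± 0.154 SE) and at the late edge Mmp1 (ZT11.9 ± 0.689). By annotation 83 members code for proteins and 4 are noncoding RNAs, and the identifier of 1 member matched no symbol.

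**Figure D1:**
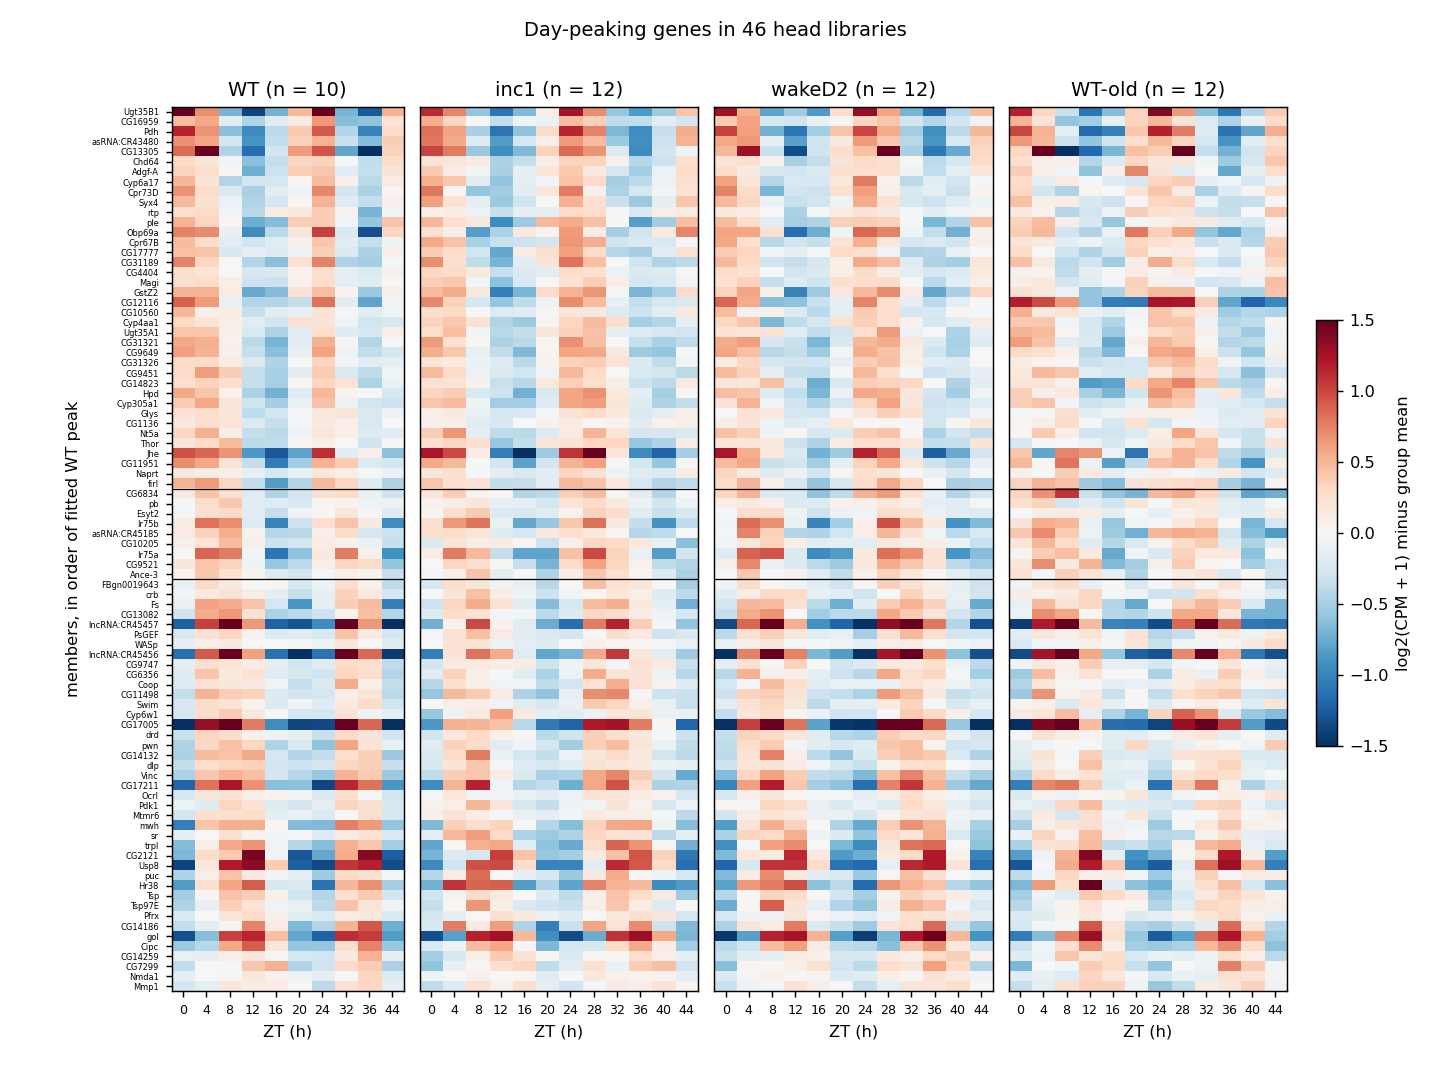
Log2(CPM + 1) of the 88 members minus the mean of each group, with 1 row per gene in order of fitted WT peak and 1 column per library at its ZT; black lines mark WT peaks of 4 and 7 h. The 38 members at the top have a fitted WT peak before ZT4 and the 41 at the bottom from ZT7 up to ZT12. The highest WT library was at 0 h for 26 of the 88 members.

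Ugt35B1 and Pdh were dawn members with a high amplitude. Ugt35B1, a UDP-glycosyltransferase that attaches sugars to small molecules, had the largest WT amplitude of the dawn members, 1.39 ± 0.052 (SE) with a peak at ZT0.21. Its CPM ran from 23.9 at ZT12 to 189 at ZT0 (median 64.5) in WT, from 41.3 at ZT12 to 212 at ZT24 (median 77.7) in inc1, from 25.6 at ZT36 to 148 at ZT24 (median 56.7) in wakeD2 and from 28.1 at ZT12 to 161 at ZT24 (median 62.3) in WT-old. All 4 groups were highest at ZT0 or ZT24 and lowest at ZT12 or ZT36, and their ranges overlapped. Ugt35A1, its neighbour on chromosome 3R of the Release 6 assembly (11170817 to 11172664, minus strand, 570 bp from Ugt35B1 at 11168503 to 11170246), had a WT amplitude of 0.40 ± 0.065 and a later peak at ZT2.3. Of 19 tested UDP-glycosyltransferases these were the only members.

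Pdh, a dehydrogenase of retinal pigment cells that acts on the visual chromophore, spanned 209, 413 and 932 CPM (lowest, median and highest) in WT. The corresponding values were 89.0, 192 and 424 CPM in inc1, 114, 257 and 496 CPM in wakeD2 and 173, 436 and 876 CPM in WT-old. Every group was highest at ZT0 or ZT24. Its amplitude was 1.0 in WT, 1.02 in inc1, 1.03 in wakeD2 and 1.13 in WT-old. CG12116 also peaked early, at ZT1.9 in WT with an amplitude of 0.77 ± 0.11, and had the largest gain in amplitude in WT-old, 1.31 ± 0.14. It ran from 156 at ZT36 to 501 at ZT0 (median 247) CPM in WT and from 100.2 at ZT40 to 546 at ZT24 (median 224) in WT-old. The 6 dark-hour WT-old libraries, low or nearly devoid of the fat body genes, were its 6 lowest, and its WT-old rhythm had an edgeR adjusted p of 1.05e-04 without and 0.00211 with the fat body score as a covariate.

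Among 73 tested cytochrome P450 genes, enzymes that oxidise hormones, pheromones and toxins, 4 were members. Cyp6a17 peaked at ZT0.64, Cyp4aa1 at ZT2.1 and Cyp305a1 at ZT3.1, with WT amplitudes of 0.41, 0.27 and 0.52. Cyp6w1 was the late one, at ZT8.1 in WT and ZT12.1 in inc1, with an amplitude of 0.26. The dawn members also included enzymes that act on tyrosine or its products. ple, the tyrosine hydroxylase that begins dopamine synthesis, peaked at ZT0.89 and ran from 37.6 at ZT12 to 91.5 at ZT0 (median 71.8) CPM in WT. Hpd and GstZ2, annotated by name to the degradation of tyrosine by way of a dioxygenase and a zeta-class glutathione S-transferase, peaked at ZT3.0 and ZT1.9 with amplitudes of 0.56 and 0.66. These 3 were set together after the values were seen, and the list of 15 tested genes of amino acid metabolism held no member.

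Jhe, the esterase that inactivates juvenile hormone, stood at a low level. It spanned 0.0408, 1.48 and 4.41 CPM in WT, 0.0781, 1.77 and 12.95 CPM in inc1 and 0.0460, 1.11 and 4.71 CPM in wakeD2. Its lowest values, at ZT16 in WT and inc1 and ZT36 in wakeD2, lie below the level of 3 counts and are read as not detected. In WT-old it never fell below 1.87 CPM, its highest value was 9.18 at ZT8, and the fitted amplitude was 0.42 ± 0.23 against 1.13 ± 0.23 in WT. Day and night values were thus closer together in WT-old. Obp69a, an odorant binding protein, peaked at ZT0.94 in WT and at ZT21.5 in inc1, where its amplitude was 0.54 against 0.98 in WT. The cuticle proteins Cpr73D and Cpr67B peaked at ZT0.70 and ZT0.96, and other dawn members with a high amplitude were CG13305 (1.21) and asRNA:CR43480 (0.72).

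Between ZT4 and ZT7 the leading members were Ir75a and Ir75b, ionotropic receptors of the antenna that respond to volatile acids. They lie 151 bp apart on the minus strand of 3L (17815570 to 17817921 and 17818073 to 17820193). Ir75a ran from 10.6 at ZT16 to 44.1 at ZT4 (median 24.3) CPM in WT and Ir75b from 6.57 at ZT16 to 25.4 at ZT4 (median 15.4). Both were highest at ZT4 and lowest at ZT16, and across the 46 libraries their log2 levels moved together (Pearson r = 0.949 over libraries that share groups and timepoints). Their amplitudes were 0.98 and 0.85 in WT, 0.76 and 0.74 in inc1, 0.95 and 0.82 in wakeD2, and 0.40 and 0.46 in WT-old. In WT-old the lowest Ir75a library was 18.7 at ZT16 against 10.6 at ZT16 CPM in WT, while the highest was alike. The WT-old rhythm of both receptors was called (edgeR adjusted p = 0.00967 and 7.72e-04) and no longer so with the fat body score as a covariate (adjusted p = 0.157 and 0.092).

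The largest WT amplitudes belonged to CG17005 and the noncoding RNAs lncRNA:CR45457 and lncRNA:CR45456. The 3 lie in a row on the plus strand of 2L, at 9327744 to 9330332, 9327039 to 9327553 and 9325845 to 9326721, with 190 and 317 bp between neighbours. CG17005 ran from 11.04 at ZT0 to 149 at ZT32 (median 39.0) CPM in WT, from 8.51 at ZT44 to 108 at ZT32 (median 39.2) in wakeD2 and from 8.68 at ZT0 to 111 at ZT32 (median 29.9) in WT-old. In inc1 its highest library stood at only 40.7 at ZT32, with the lowest at 6.61 at ZT24. The inc1 amplitudes of CG17005, lncRNA:CR45457 and lncRNA:CR45456 were 1.10 ± 0.12, 0.86 ± 0.14 and 0.83 ± 0.11, against 1.83 ± 0.17, 1.78 ± 0.15 and 1.81 ± 0.13 in WT. In inc1 Jhe, gol and Usp8 had larger amplitudes than these 3. The fitted peaks of the 3 lay between ZT7.76 and ZT9.13 in all 4 groups. Their levels were correlated across libraries with r from 0.965 to 0.987, and whether they are parts of a single transcript was not tested.

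Usp8 and gol, which both act on ubiquitin, peaked near dusk. Usp8, a deubiquitinase that acts on CLK protein in the fly clock, was the only member among 12 tested clock kinases and degradation factors. It ran from 42.9 at ZT0 to 288 at ZT12 (median 137) CPM in WT, from 36.8 at ZT44 to 178 at ZT32 (median 85.6) in inc1, from 44.5 at ZT0 to 240.0 at ZT36 (median 107) in wakeD2 and from 47.3 at ZT0 to 285 at ZT36 (median 134) in WT-old. The groups overlapped widely, with inc1 the lowest at the peak. The amplitudes were 1.46 ± 0.071, 1.17 ± 0.062, 1.32 ± 0.036 and 1.25 ± 0.076 in that order. gol, which codes for an E3 ubiquitin ligase of endosomes, ran from 73.9 at ZT0 to 410.3 at ZT12 (median 186) CPM in WT. Its amplitude was 1.29 ± 0.073 in WT, 1.40 ± 0.085 in inc1, 1.49 ± 0.082 in wakeD2 and 1.21 ± 0.071 in WT-old. Cipc, whose mammalian relative binds CLOCK and represses it, peaked at ZT11.3 in WT with an amplitude of 0.73.

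trpl, a light-activated cation channel of photoreceptors, was the only member among 26 tested phototransduction genes and the most abundant member. It ran from 1737 at ZT0 to 4348 at ZT12 (median 2779) CPM in WT, from 794 at ZT0 to 2512 at ZT32 (median 1401) in inc1, from 1115 at ZT24 to 3871 at ZT36 (median 2142) in wakeD2 and from 1366 at ZT24 to 2821 at ZT36 (median 1881) in WT-old. It was lowest at ZT0 or ZT24 in every group and highest from ZT8 to ZT12 of either day. The activity-regulated transcription factors gave 2 members of 8 tested. Hr38, the NR4A-type nuclear receptor induced by neuronal activity, peaked at ZT10.5 in WT, ZT8.0 in inc1 and ZT9.2 in wakeD2. sr, an Egr-type zinc finger factor, had an amplitude of 0.18 ± 0.033 in WT, 0.48 ± 0.10 in inc1 and 0.48 ± 0.087 in wakeD2. puc, the phosphatase that limits JNK signalling, peaked at ZT10.3 in WT with an amplitude of 0.32. Further late members with a high amplitude were CG17211 (1.19), CG2121 (1.11) and mwh (0.78), an actin-binding effector of planar polarity.

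**Figure D2:**
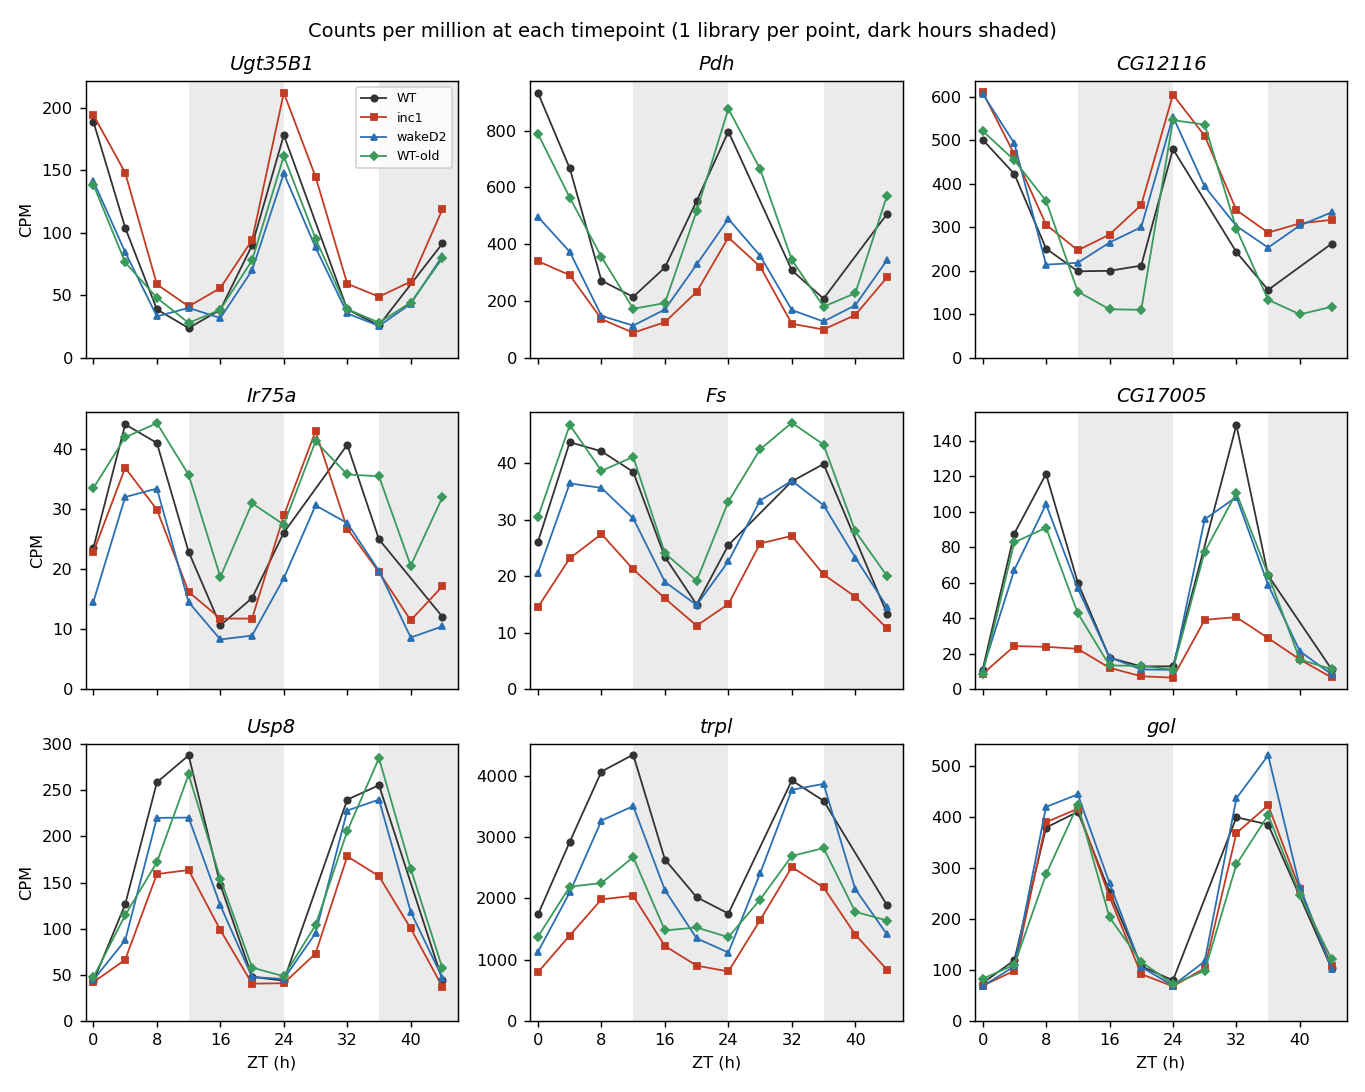
CPM against ZT in WT, inc1, wakeD2 and WT-old for 9 members, 1 library per point and dark hours shaded; WT has no point at ZT28 and ZT40. Ugt35B1, Pdh and CG12116 are highest at ZT0 and ZT24, and Ir75a and Fs at ZT4 to ZT12 and again on the next day. CG17005 is highest at ZT32 in every group, and Usp8, trpl and gol at ZT8 to ZT12 of either day. The inc1 values are the lowest for CG17005, Usp8 and trpl at their peaks.

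Peak times in the mutants stayed near those of WT. The fitted peak was within 2 h of WT for 74 members in inc1 and 85 in wakeD2, with a median difference of -0.379 h and -0.149 h. The largest difference in either direction was 3.95 h in inc1 (Cyp6w1) and 2.80 h in wakeD2. The median amplitude ratio to WT was 0.908 in inc1 and 0.909 in wakeD2, and 51 and 56 members had the smaller amplitude. Because the same fits chose the members, genes that had lost their rhythm in a mutant could not be members.

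**Figure D3:**
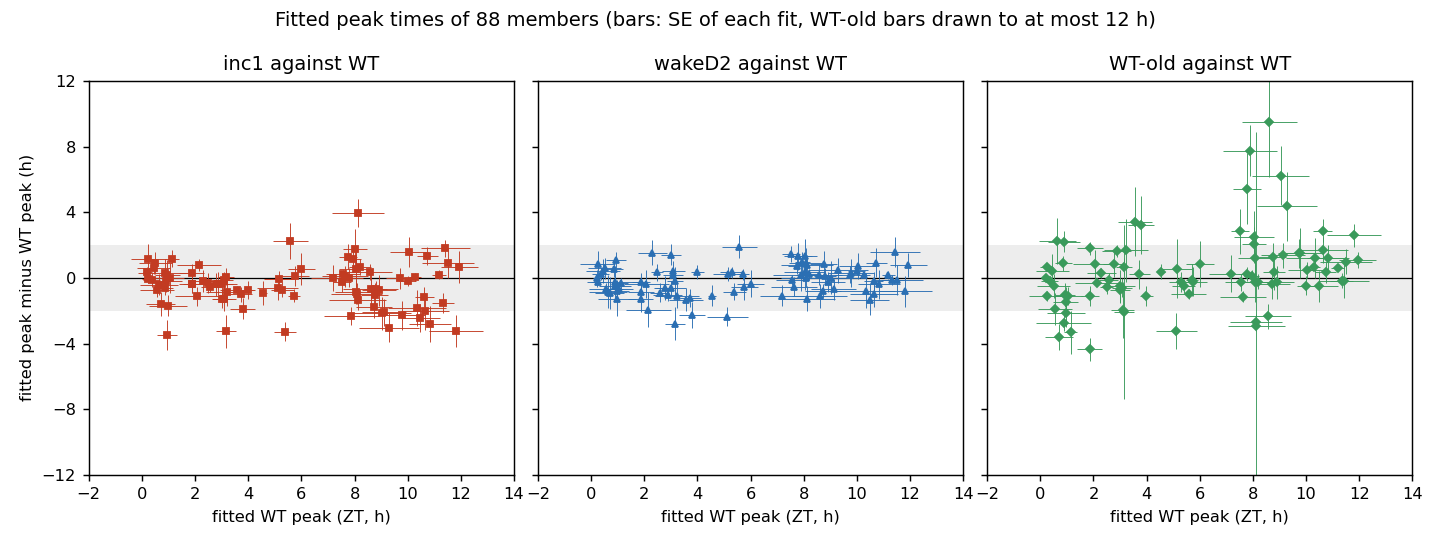
Fitted peak in inc1, wakeD2 and WT-old minus the WT peak, in hours, against the WT peak of each of the 88 members; bars are standard errors of the fits and the grey band marks 2 h. The band holds 74 members in inc1, 85 in wakeD2 and 64 in WT-old.

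The mutants' libraries at ZT28 and ZT40 entered the rule only through the filter on 1 CPM, not through the cosine fits. In WT the cosine gives each member a difference between these hours, and the 2 libraries of each mutant were read against it, without a test since each hour has a single library. The sign matched in 81 of 88 members in inc1 (92%, beside 59.4% of all genes) and in 79 in wakeD2 (89.8%, beside 65.7%). Among genes with a fitted WT difference of at least 0.2, it matched in 70 of 73 members in inc1 (95.9%, beside 69.6% of all such genes) and in 69 in wakeD2 (94.5%, beside 76%). Of the 18 members with a WT difference of at least 1 on the log2 scale, 17 matched in inc1 and 18 in wakeD2. The share of all genes at that limit was not computed, so these counts are a description only. Ir75a was at 43.0 and 11.5 CPM at ZT28 and ZT40 in inc1 and at 30.6 and 8.63 in wakeD2. The exception among the 18 was Obp69a in inc1, at 11.3 and 11.8 CPM. The 5 members opposite to the WT fit in both mutants were Hr38, CG14186, Tsp97E, puc and CG1136, with fitted WT differences of at most 0.56. Hr38 was the furthest from the fit, with 1.69 in inc1 and 1.10 in wakeD2 against -0.20 fitted in WT. In the WT libraries themselves Hr38 was at 26.8 CPM at ZT4 and 19.1 at ZT16, and puc at 94.5 and 86.2. Both thus had the direction of the mutants in WT too, against the cosine. CG14186 (136 and 165 CPM) and Tsp97E (179 and 189) went with the WT fit.

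Time-averaged levels were tested in 1 edgeR quasi-likelihood fit over all 46 libraries with time of day as a factor (two-sided, Benjamini-Hochberg adjustment over 9969 genes, threshold 0.05). In inc1, 48 members differed from WT, 34 lower and 14 higher (54.5%), where 33.5% of all genes were called, 18.5% lower and 14.9% higher. The cosine fits of the rule did not compare levels between groups, but the rule kept genes with a small residual spread in the WT, inc1 and wakeD2 libraries. This favours calls, so a share above that of all genes is not read as a result about the members in any of the 3 comparisons. The split was unequal between early and late members, though that difference itself was not tested. Of the 50 members that peak at ZT4 or later 28 fell and 4 rose, and of the 38 earlier ones 6 fell and 10 rose. On log2(CPM + 1) without normalization factors (limma-trend) the split over all members was 41 lower and 9 higher. The members' median log2 fold change was -0.081, beside 0.017 over all genes.

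Swim, a secreted protein that binds Wingless, had the smallest p of those that fell. It fell by 0.79 on the log2 scale (SE 0.051, edgeR adjusted p = 4.49e-16), from 62.9 ± 9.75 CPM (SD, n = 10) to 34.8 ± 5.56 (n = 12). Its lowest, median and highest values were 50.6, 62.4 and 76.0 CPM in WT and 27.0, 33.8 and 45.6 CPM in inc1. The ranges did not overlap, as for 2.24% of all genes, and it was the only such member. The apical polarity protein crb (-0.56, edgeR adjusted p = 3.23e-13), the matrix protein Tsp (-0.60, adjusted p = 1.08e-12), the glypican dlp (-0.50) and the activin antagonist Fs (-0.59) were lower at all 10 shared timepoints on CPM with TMM factors. Vinc, a cytoskeletal adhesion protein, fell by 0.42 (adjusted p = 6.73e-07, up to 0.0562 over the alternatives).

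The eye genes Pdh and trpl fell too. Pdh changed by -1.07 (SE 0.078, edgeR adjusted p = 1.90e-14) and trpl by -0.93 (SE 0.073, adjusted p = 1.38e-13), each lower at 10 of 10 timepoints. In the phototransduction list 18 of 26 genes fell in inc1, 10 in wakeD2 and 15 in WT-old, and 1, 3 and 0 rose. The sum of the photoreceptor markers was 42745 to 56820 CPM in inc1 and 45124 to 58044 in WT, and whether the number of photoreceptors differed was not tested. The fat body genes summed to 70017.5 to 126381 CPM in inc1 against 50212 to 73538 in WT, and roX1 and roX2 to 449.9 to 769 CPM against 679.6 to 880 in WT, and their part in these levels was not tested. lncRNA:CR45457 had the largest fall, -1.53 (SE 0.20), with CG17005 at -1.04 and Usp8 at -0.44.

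The members that rose in inc1 mostly peak at dawn. Obp69a rose by 1.43 (SE 0.19, edgeR adjusted p = 1.96e-07), from 1.11, 4.42 and 9.73 CPM (lowest, median and highest) in WT to 5.54, 11.3 and 18.2 CPM in inc1. It was higher at all 10 shared timepoints, though the ranges overlapped. Ugt35B1 rose by 0.53 (adjusted p = 1.20e-06) and CG9451 by 0.50 (adjusted p = 1.48e-06), both higher at 10 of 10 timepoints on CPM with TMM factors. Among the 19 UDP-glycosyltransferases 8 rose and 1 fell, and among 27 odorant binding proteins 12 rose and 5 fell. Mmp1, a matrix metalloprotease, and CG7299 were late members that rose, by 0.24 and 0.34. Every inc1 call named here except that of Vinc kept an adjusted p under 0.05 in the other 11 fits, with a highest value of 0.042 for CG7299.

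In wakeD2 27 members were called, 24 lower and 3 higher (30.7%, beside 23.3% of all genes, 11% lower and 12.3% higher). The accessory gland RNA described above was present in 11 of the 12 wakeD2 libraries. In wakeD2 roX1 and roX2 summed to 446.6 to 640.3 CPM, against 679.6 to 880 in WT. The fat body genes summed to 61216 to 94583 CPM, against 50212 to 73538 in WT. Their part in these levels was not tested. A body-tissue score was made from the accessory gland, testis, ejaculatory bulb and midgut genes together. With it as a covariate 12 members were called, 10 lower and 2 higher. Leaving out the libraries that held accessory gland RNA leaves 1 wakeD2 library, so no count of calls is given for that fit. CG14259 had the smallest p and fell by 0.75 (SE 0.074, edgeR adjusted p = 3.09e-10, up to 0.194 over the alternatives), from 37.0, 43.7 and 65.2 CPM in WT to 20.6, 27.5 and 34.0 CPM in wakeD2. Its ranges did not overlap, which held for 0.843% of all genes. Pdh was again lower, by 0.76 (adjusted p = 1.01e-09), as were CG10560 (-0.67), Swim (-0.36) and the receptors Ir75b (-0.62) and Ir75a (-0.44). The 3 that rose were Nt5a (0.19), Tsp97E (0.19) and CG9451 (0.22), and Nt5a was at -0.0038 without the libraries that held accessory gland RNA. Both mutants are compared with the same WT libraries, so a low or high WT value enters both contrasts.

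In WT-old 47 members differed from WT, 28 lower and 19 higher (53.4%, beside 28.7% of all genes, 14.7% lower and 14% higher). In the light-hour libraries alone, where the fat body genes were present, 25 were called, 14 lower and 11 higher, and with the fat body score as a covariate 40, 20 in each direction. Without normalization factors the balance turned, with 15 lower and 30 higher. Mmp1 rose by 0.47 (SE 0.038, edgeR adjusted p = 3.67e-12) and CG6356 by 0.46 (adjusted p = 5.07e-09), each higher at all 10 shared timepoints. Swim, which fell in both mutants, was higher in WT-old by 0.43 (SE 0.051, adjusted p = 1.83e-08). Its WT-old values of 77.2, 91.9 and 103 CPM lay wholly above those of WT, as for 1.12% of all genes. dlp and Esyt2, a protein of contacts between endoplasmic reticulum and plasma membrane, rose by 0.26 and 0.23.

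The largest rise in WT-old was that of Jhe, 2.13 with an SE of 0.44 (edgeR adjusted p = 2.58e-04, up to 0.121 over the alternatives). Its WT-old libraries spanned 1.87, 5.66 and 9.18 CPM, and the WT libraries 0.0408, 1.48 and 4.41 CPM, with overlap. The members that fell included the P450 genes Cyp4aa1 (-0.73, adjusted p = 2.18e-09) and Cyp305a1 (-0.32, adjusted p = 7.56e-07). In the whole P450 family 20 of 73 genes rose and 19 fell, and 31 had a rhythm in WT-old. CG17211 fell by 0.77 and trpl by 0.60, as did the member without a symbol (-0.39). Apart from Jhe, each WT-old call named here kept an adjusted p under 0.05 in the other 11 fits, the light-hour libraries and the fat body covariate included, with a highest value of 0.0286 for Cyp305a1. GstZ2 itself was at 0.019 in WT-old (edgeR adjusted p = 0.829), while of the 29 tested glutathione S-transferases 17 rose and 1 fell, beside 14% and 14.7% of all genes.

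**Figure D4:**
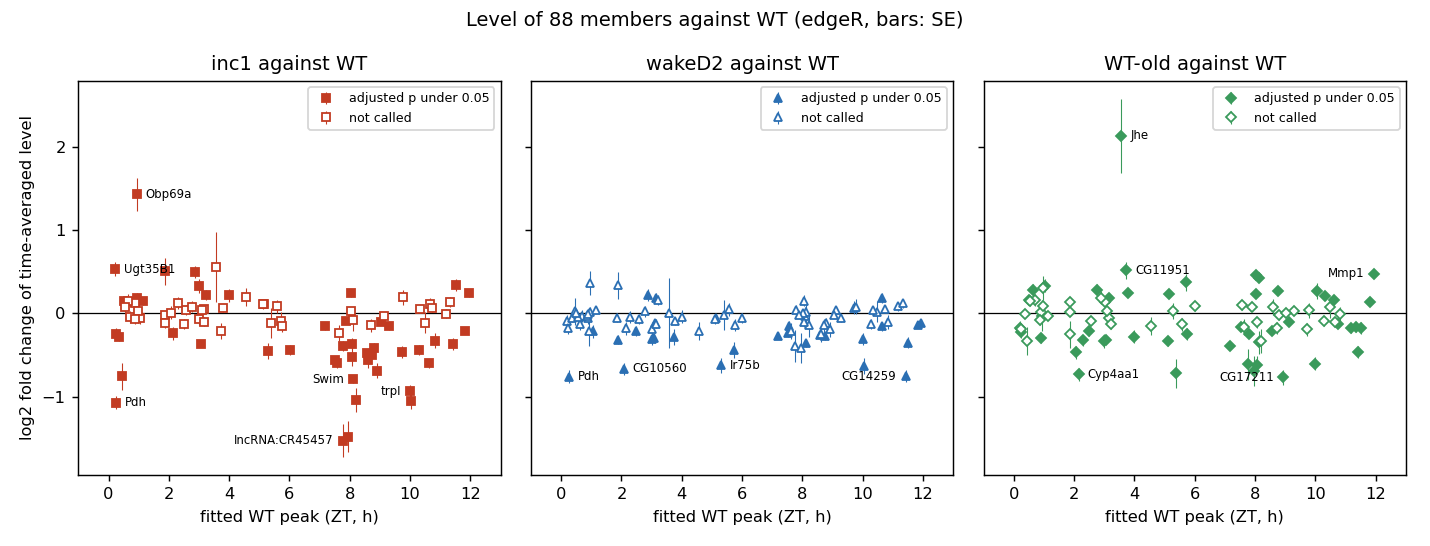
Log2 fold change of the time-averaged level against WT, from edgeR, for each member in inc1, wakeD2 and WT-old against its fitted WT peak; bars are standard errors and filled symbols have an adjusted p under 0.05. In inc1 28 of the 50 members that peak at ZT4 or later are called lower, Obp69a is highest at 1.43, and in WT-old Jhe is highest at 2.13.

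The WT-old libraries entered the rule only through the filter on 1 CPM, not through the cosine fits, so the rhythm of the members at Day 49 could be tested. A cosine fitted to the 12 WT-old libraries (edgeR quasi-likelihood, adjusted over 9969 genes) was significant for 67 of 88 members, beside 15.1% of all genes. Of the 108 night-peaking genes 87 were called, and of the 9 genes left out by name 8. With the fat body score as a covariate, 49 members were called, beside 9.81% of all genes, and 48 were called in both fits. The score follows the light hours in WT-old, so the fit with it cannot separate it from rhythms that peak near mid-day. The fitted peak lay within 2 h of WT for 64 members, beside 34.4% of all genes, and 57 of these were called. The median amplitude ratio to WT was 0.836, and 70 of 88 members had the smaller amplitude in WT-old. Members were chosen for a clear WT cosine and not for one in WT-old, which favours a ratio below 1, so nothing is read from it. The median difference in peak, WT-old minus WT, was -0.392 h over the 38 dawn members (15 later), -0.237 h over the 9 mid-day members (3 later) and 0.692 h over the 41 late members (28 later).

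The smallest p for rhythm in WT-old were those of Usp8, gol, Pdh, Ugt35B1 and lncRNA:CR45456, while the largest amplitudes were those of CG17005 (1.75 ± 0.20), lncRNA:CR45456 (1.67 ± 0.16) and lncRNA:CR45457 (1.64 ± 0.18). Usp8 had an amplitude of 1.25 ± 0.076 and a peak at ZT10.97 (edgeR adjusted p = 3.22e-06, 4.81e-06 with the covariate). gol had 1.21 ± 0.071 and Pdh 1.13 ± 0.067, beside 1.29 ± 0.073 and 1.0 ± 0.060 in WT. Cyp4aa1 had a larger amplitude than in WT, 0.46 ± 0.027 against 0.27 ± 0.067 (adjusted p = 1.40e-05, 1.82e-04 with the covariate). For Cyp6w1, whose amplitude rose from 0.26 ± 0.060 to 0.67 ± 0.091, the call was lost with the covariate (adjusted p = 4.23e-04 and 0.31). Its WT-old peak lay near mid-day, at ZT5.4, where the fit with the score cannot decide. The difference in amplitude between WT-old and WT was not tested.

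At the other end stood pwn, a gene of bristle formation, PsGEF, Mtmr6, Ocrl and WASp. Ocrl and Mtmr6 are phosphoinositide phosphatases, and WASp activates branching of actin filaments. pwn had a WT amplitude of 0.45 ± 0.11 and 0.088 ± 0.078 in WT-old (edgeR adjusted p = 0.867). Its WT values ran from 3.80 at ZT24 to 10.03 at ZT32 (median 6.57) CPM and its WT-old values from 5.97 at ZT24 to 9.63 at ZT44 (median 6.84). The lowest WT-old library was above the lowest of WT, and the highest lay in the dark hours. Swim had no rhythm past the threshold in WT-old either, at 0.021 ± 0.065 against 0.24 ± 0.059 in WT (adjusted p = 0.328), nor had Jhe (adjusted p = 0.206).

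Since the fat body genes separate the light from the dark hours of WT-old, the members were also compared between ZT0 and ZT8 within its 6 light-hour libraries, a test chosen after these data were seen. It called 30 members, beside 9.71% of all genes. Each of the 30 differed in the direction of the WT fit, as did 74.1% of all 968 genes called. Called or not, 77 of the 88 (87.5%) lay in that direction, beside 60.9% of all genes. Of the 38 dawn members 13 were higher at ZT0 and 0 at ZT8, and of the 50 later ones 17 were higher at ZT8 and 0 at ZT0. Over all genes, 5.78% were called higher at ZT0 and 3.93% at ZT8. With 2 libraries per time the count fell to 6 when the ZT0 or the ZT24 library was left out, all 6 of them higher at ZT8.

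CG17005 was at 8.68 and 11.2 CPM at ZT0 and ZT24 and at 91.1 and 111 at ZT8 and ZT32. Its log2 difference, ZT0 minus ZT8, was -3.35 (SE 0.17, adjusted p = 0.0014) in edgeR. Usp8 was at 47.3 and 48.3 CPM against 172 and 206, a difference of -1.99 (SE 0.12, adjusted p = 0.00186). In the opposite direction Ugt35B1 was at 139 and 161 CPM against 48.1 and 39.1, a difference of 1.78 (SE 0.18, adjusted p = 0.0105). Pdh differed by 1.24 (SE 0.13, adjusted p = 0.0119). Over the alternative edgeR, DESeq2 and limma fits the highest adjusted p was 0.0147 for CG17005 and 0.0402 for Usp8. It was 0.0847 for Ugt35B1 and 0.0942 for Pdh, past the threshold. The fat body genes stood at 44752 to 57510 CPM at ZT0 and ZT24 and 53142 to 59079 at ZT8 and ZT32.

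**Figure D5:**
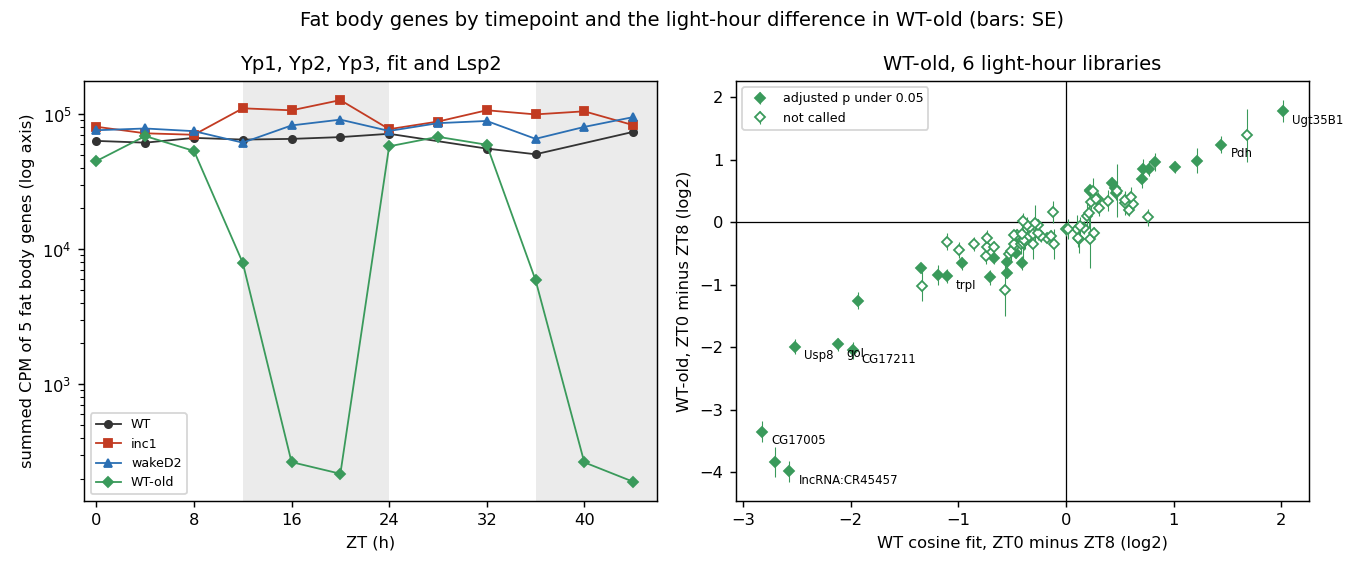
Left, summed CPM of 5 fat body and yolk genes by ZT in the 4 groups on a log axis, dark hours shaded; WT-old falls from 44752 to 68484 CPM in the light hours to 189.5 to 265 at ZT16, ZT20, ZT40 and ZT44. Right, the log2 difference ZT0 minus ZT8 of each member in the light-hour WT-old libraries against that of the WT fit, with standard errors; the 30 filled symbols have an adjusted p under 0.05 and lie on the WT side of zero.

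The pathway lists held few members each, and their counts are to be read against the shares of all genes called, given above for each comparison. Besides those named above, Glys, the glycogen synthase, belonged to 22 tested genes of sugar metabolism, of which 8 rose and 2 fell in WT-old. ple was 1 of 9 genes in the list of monoamine uptake and inactivation, of which 3 rose and 4 fell in inc1 and 4 fell in wakeD2. Among the 12 clock kinases and degradation factors 2 rose and 4 fell in inc1, 4 fell in WT-old, and 2 had a rhythm in WT-old, a share near the 15.1% of all genes. Of 22 cuticle proteins, 9 fell and 1 rose in inc1 and 9 fell and 3 rose in wakeD2. No member belonged to the lists of ion channels of rhythmic neurons, antioxidant genes, chaperones, lipid or amino acid metabolism, solute carriers, ribosomal proteins, neuropeptides or tissue markers.

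Some members share their locus with other genes, which bears on how far a count belongs to them. A tested gene on the opposite strand overlaps 27 of the 88, and for 11 of these it has the higher mean CPM in WT. Cpr73D, at a mean of 29.9 CPM, overlaps Ogdh at 890.7, Cyp4aa1 at 23.2 overlaps Strn-Mlck at 200.2, Swim at 62.9 overlaps Vps35 at 104, and Obp69a at 4.88 overlaps CG32104 at 10.02. The TruSeq kit used keeps strand, but the strand setting of the counting was not given in the sources used here, so reads of such pairs cannot be told apart with certainty.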

How the data were processed

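RNA was extracted from pooled heads and sequenced from TruSeq stranded mRNA libraries. The authors demultiplexed with bcl2fastq 2.20, aligned with STAR 2.4.2a and counted reads per gene with featureCounts, per the labels and their processing notes. The deposited values are raw counts, 1 column per library, and were used without any per-library rescaling by the authors. Each count column matched the title of 1 sample. Gene names and coordinates came from the Ensembl annotation of the Release 6 assembly.

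CPM were computed from total counts, and cosines with a period of 24 h were fitted by least squares to log2(CPM + 1), a scale that understates changes of low genes. Time-averaged levels were tested in edgeR 4.0.16 (TMM factors, glmQLFit) with group and time of day as terms, and rhythm in WT-old with cosine and sine terms. All p-values were adjusted by Benjamini-Hochberg over 9969 genes, and 0.05 was the threshold. DESeq2 1.42.0 and limma 3.58.1, in R 4.3.3, served as alternatives. The main edgeR tests of level, of rhythm and of ZT0 against ZT8 were also run on simulated counts, and the DESeq2 and limma fits were not.

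Members and gene lists were chosen with earlier results of these data known. Named members were the 20 with the largest mean amplitude over WT, inc1 and wakeD2 and the 5 with the smallest p in each direction of each level comparison. Also named were the 5 smallest and 5 largest p for rhythm in WT-old and members of the pathway lists. The last were those opposite to the WT fit in both mutants' libraries at ZT28 and ZT40. Hpd, Fs, Vinc, dlp in inc1 and Swim's rhythm in WT-old were named after their values were seen. The fits on light-hour libraries, the fat body score (mean log2(CPM + 1) of its 5 genes) and the ZT0 against ZT8 test were chosen after seeing the data. Floors of 3 counts cover counting error only. No 2 libraries of a group agreed within sampling noise.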

Additional observations from a re-analysis of the deposited data

How the results depend on the processing

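Of the comparisons over members, most kept their count within 1.5 times under the alternatives. The exceptions are these. With the second sampling day alone 31 members differed from WT in inc1, 8 in wakeD2 and 23 in WT-old, and with the first day alone 26 in WT-old, in place of 48, 27 and 47. In WT-old the 6 light-hour libraries alone gave 25. In wakeD2 the count was 12 with the body-tissue score as a covariate and 0 in edgeR without libraries that held accessory gland RNA, a fit with 1 wakeD2 library whose spread is taken from the other groups. In that fit the change of Nt5a turned to -0.0038, and 22 values of named wakeD2 genes over all alternatives missed the threshold. The ZT0 against ZT8 count in WT-old ranged from 6 to 33 as each library was left out, with 6 without ZT0 or without ZT24. Without normalization factors (limma-trend) the split of the calls moved from 14 higher and 34 lower to 9 and 41 in inc1, and from 19 and 28 to 30 and 15 in WT-old. A rule threshold of 0.05 gave 164 members in place of 88. The fits on a single day, on light hours or with a library left out rest on fewer libraries, and the cause of these differences was not tested. Rhythm in WT-old was called for 58 to 77 members in the fits without the fat body score.

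With a replicate block for the collection timepoint 47, 26 and 47 members were called in inc1, wakeD2 and WT-old. The timepoints do not pair the libraries: differences between days were correlated with those of WT at -0.024 to 0.76 in inc1, -0.83 to 0.18 in wakeD2 and -0.19 to 0.063 in WT-old. Depth limited the lowest genes, such as Jhe.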
